A study of Arabidopsis thaliana with 8 samples.

Results

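The thylakoid, the inner membrane of the chloroplast, carries the complexes of photosynthetic electron transport, and 5 Arabidopsis thaliana genes for factors that build or regulate these complexes were followed here at 2 plant ages. PSB27, LPA19, CCB3, PIFI and AT1G74730 were taken as the array rows whose platform annotation names exactly 1 gene, that gene being one of the 5. They were 5 of 692 rows that name a single gene, out of 3439 rows in the deposited table. The plants were 4-week-old or 1-week-old wild type of ecotype Columbia-0, the common laboratory strain, with 4 samples of total RNA at each age, numbered 1 to 4. The labels give no treatment, no organ and no origin of the samples from separate plants, so the p-values measure the spread between these samples only. That spread may be technical, and precision is limited by the small number of arrays.

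Photosystem II splits water and passes electrons through plastoquinone to the cytochrome b6f complex and on to photosystem I. These complexes hold many cofactors, and auxiliary proteins that are absent from the finished complex guide their assembly, maturation and repair. The plastid NDH complex returns electrons from the stroma to plastoquinone, both in cyclic flow around photosystem I and in chlororespiration in the dark. PSB27 is a lumenal protein that binds photosystem II during its assembly and repair, and LPA19 is a homologue of it that acts in the maturation of the reaction centre protein D1. CCB3 belongs to the CCB factors, which attach a haem covalently to cytochrome b6. PIFI is a chloroplast protein needed for the rise of chlorophyll fluorescence after illumination that depends on the NDH complex. AT1G74730 was grouped with factors of thylakoid organisation, and the annotation used here names it by its locus code alone.

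Signals are array intensities in arbitrary units on a linear scale, and how they were made is not stated in the labels or the table. Summed signals of the samples lay between 3070 and 3374, and exact 0s made up 11.3% to 13.6% of each sample. All 5 genes had a signal above 0 in all 8 samples, so all 5 passed the filter on low values. Within an age, samples 1 and 2 resembled each other and so did samples 3 and 4, with a median correlation across rows of 0.948 inside these pairs of samples and 0.879 between them. No label explains this split. Of the 16 marker genes listed for leaf, root, flower, seed and senescence, 0 had a row of their own, and which organs the samples held was therefore not checked. In such bulk samples, fewer cells of a type and less RNA per cell cannot be told apart.

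LPA19 rose, AT1G74730 and PIFI fell, and PSB27 and CCB3 were higher in the mean at 4 weeks without passing the test. The test was limma on quantile-normalized log2 signals, 4 weeks minus 1 week, with Benjamini-Hochberg adjustment over all 2924 tested rows and a threshold of 0.05. The 3 genes of 5 that passed stand against 45.7% of all tested rows (1337 of 2924), with 25.3% higher and 20.4% lower at 4 weeks, and against 44.6% of the tested single-gene rows. Changes were thus common across the array, and those of the 5 genes were mixed in direction, with 1 rise and 2 falls. Their median log2 difference was 0.37, with a range from −1.42 to 1.04, beside a median of 0.16 and quartiles of −0.40 and 0.58 over all tested rows.

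**Figure D1:**
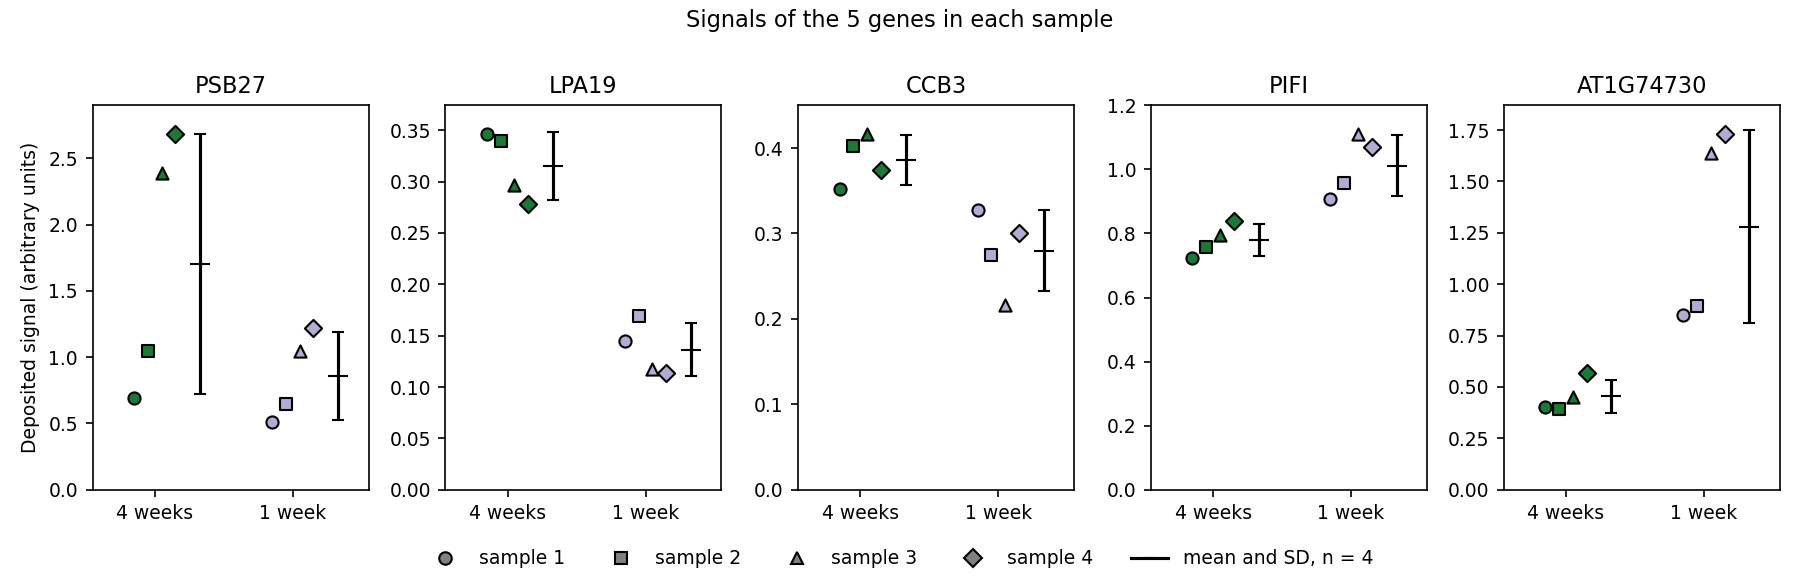
Deposited signal (arbitrary units, linear axis from 0, a separate scale for each gene) of the 5 genes in each sample, with 4 weeks left of 1 week; marker shapes give the sample number, and the bar is the mean with its SD (n = 4). The ages do not overlap for LPA19, CCB3, PIFI and AT1G74730, while those of PSB27 do.

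Of the photosystem II factors, LPA19 had signals of 0.347, 0.339, 0.297 and 0.278 in samples 1 to 4 of 4-week-old plants, against 0.145, 0.169, 0.118 and 0.113 in samples 1 to 4 of 1-week-old plants. Every 4-week sample lay above every 1-week sample. The means were 0.315 ± 0.0331 at 4 weeks and 0.136 ± 0.0260 at 1 week (SD, n = 4 each). LPA19 rose 2.06-fold on the normalized scale, or by 1.04 in log2 (SE 0.16, limma adjusted p = 0.00112), and 10.4% of the tested rows had a larger rise. The rise was of much the same size in every sample number, with log2 differences of 1.15, 0.94, 1.10 and 0.98 for numbers 1 to 4. The LPA19 signal is dim, and with 0.133 added to all signals before the log2 its difference was 0.61 (limma adjusted p = 0.00457). The limma adjusted p of LPA19 was 0.0696 when the samples of each look-alike pair (1 with 2, 3 with 4) were averaged before the fit. When the averages were also blocked, the limma adjusted p of LPA19 was 0.0108.

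PSB27 had signals of 0.691, 1.05, 2.39 and 2.69 in samples 1 to 4 of 4-week-old plants, against 0.512, 0.647, 1.04 and 1.22 in samples 1 to 4 of 1-week-old plants. The ages overlapped, because samples 3 and 4 of the younger plants reached the level of samples 1 and 2 of the older ones. The means were 1.70 ± 0.982 at 4 weeks and 0.856 ± 0.332 at 1 week (SD, n = 4 each). The normalized log2 difference of 0.89 did not pass the test (SE 0.46, limma adjusted p = 0.146), and its 95% interval ran from −0.16 to 1.94. The exact two-sided permutation test of PSB27 over the 8 samples gave p = 0.171. Within an age, PSB27 varied more than 90.7% of the tested rows, with a residual SD of 0.74 on the normalized log2 scale.

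Samples of the same number can also be set against each other. In each of the 4 numbers PSB27 was higher at 4 weeks, 1.35-fold, 1.62-fold, 2.29-fold and 2.20-fold in the deposited signals of numbers 1 to 4. With the sample number as a block, PSB27 rose, with the same log2 difference of 0.89 (SE 0.17, limma adjusted p = 0.00923), in a fit that called 56.6% of all tested rows. The numbers are in the sample titles, but no label says that samples of equal number are paired, and that reading comes from the data. PSB27 also passed without sample 1 of the 4-week-old plants (log2 difference 1.25, limma adjusted p = 0.0438), and its log2 difference was 0.56 in samples 1 and 2 alone (limma adjusted p = 0.170) and 1.22 in samples 3 and 4 alone (limma adjusted p = 0.00675).

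PSB27 and LPA19 encode homologous proteins, and their age differences were compared directly. The change of PSB27 minus that of LPA19 was −0.16 on the log2 scale, and a two-sided exact permutation test gave p = 0.800 over the 8 samples (smallest possible p 0.0286). The sign of this value turned without single samples, and it ran from −0.53 to 0.27 when any 1 sample was left out, so unequal change of the pair was not detectable with these samples. Within an age, the homologues varied in opposite directions (correlation of deviations from the age means −0.88). This was not particular to the pair, since LPA19 also varied against PIFI (−0.81) and AT1G74730 (−0.87). In samples 3 and 4, PSB27 was 2.92-fold its level in samples 1 and 2 at 4 weeks and 1.95-fold at 1 week, whereas LPA19 was 1.19-fold higher in samples 1 and 2 at 4 weeks and 1.36-fold higher there at 1 week. Neither direction is rare on this array: samples 3 and 4 lay above samples 1 and 2 in both ages in 17.2% of 2814 rows measured in all samples, and below them in 18.8%.

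CCB3, the cytochrome b6f factor, had signals of 0.352, 0.402, 0.417 and 0.374 in samples 1 to 4 of 4-week-old plants, against 0.328, 0.275, 0.216 and 0.301 in samples 1 to 4 of 1-week-old plants. All 4-week samples lay above all 1-week samples, by a narrow margin between sample 1 of each age. The means were 0.386 ± 0.0291 at 4 weeks and 0.280 ± 0.0476 at 1 week (SD, n = 4 each). The normalized log2 difference of 0.37 missed the threshold (SE 0.14, limma adjusted p = 0.0631; 95% interval of the difference from 0.04 to 0.69, not adjusted for the number of rows). CCB3 passed on the values as deposited (log2 difference 0.48, limma adjusted p = 0.0302), after median centring (0.43, 0.0435), with samples 1 and 2 against samples 3 and 4 as a block (0.37, 0.0453), and without sample 1 of the 1-week-old plants (0.45, 0.0417). CCB3 did not pass in the other 14 of 18 alternative settings. It missed with the sample number as a block (limma adjusted p = 0.0865) and with look-alike samples averaged (0.299, or 0.209 when also blocked). By number, its log2 differences were 0.05, 0.50, 0.76 and 0.15, so the size varied most between numbers 1 and 3, and with the pseudocount the difference was 0.24 (limma adjusted p = 0.0671).

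PIFI, the NDH-related factor, had signals of 0.722, 0.758, 0.794 and 0.840 in samples 1 to 4 of 4-week-old plants, against 0.908, 0.957, 1.11 and 1.07 in samples 1 to 4 of 1-week-old plants. Every 4-week sample lay below every 1-week sample. The means were 0.778 ± 0.0504 at 4 weeks and 1.01 ± 0.0946 at 1 week (SD, n = 4 each). PIFI fell by 0.37 in log2 (SE 0.10, limma adjusted p = 0.0149), a 1.29-fold lower level at 4 weeks. This was a small but even change, with log2 differences of −0.37, −0.35, −0.43 and −0.34 for numbers 1 to 4, and only 0.513% of the tested rows varied less within an age (residual SD 0.07 on the log2 scale). Of all tested rows, 25.9% had a larger fall. After averaging the look-alike samples (1 with 2, 3 with 4), PIFI had a limma adjusted p of 0.281, or 0.196 when the averages were also blocked.

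AT1G74730, grouped with thylakoid organisation, had signals of 0.402, 0.392, 0.451 and 0.569 in samples 1 to 4 of 4-week-old plants, against 0.852, 0.896, 1.64 and 1.73 in samples 1 to 4 of 1-week-old plants. The highest 4-week sample stayed below the lowest 1-week sample. The means were 0.454 ± 0.0809 at 4 weeks and 1.28 ± 0.470 at 1 week (SD, n = 4 each). AT1G74730 fell by 1.42 in log2 (SE 0.23, limma adjusted p = 0.00133), which was 2.68-fold lower at 4 weeks, and 7.63% of the tested rows had a larger fall. After averaging the look-alike samples, its limma adjusted p was 0.0590, or 0.00536 when the averages were also blocked. The younger plants held most of its variation, since samples 3 and 4 were 1.93-fold samples 1 and 2 at 1 week, against 1.28-fold at 4 weeks.

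Another row of the array is annotated with both AT1G74730 and AT5G08050 and therefore belongs to neither gene alone. Its signals were 0.592, 0.540, 0.759 and 0.798 in samples 1 to 4 of 4-week-old plants, against 2.28, 1.43, 1.90 and 3.26 in samples 1 to 4 of 1-week-old plants. This row fell by 1.64 in log2 (SE 0.24, limma adjusted p = 0.000979), in the same direction as the row of AT1G74730, and the ages did not overlap. What part of its signal comes from either gene was not tested.

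**Figure D2:**
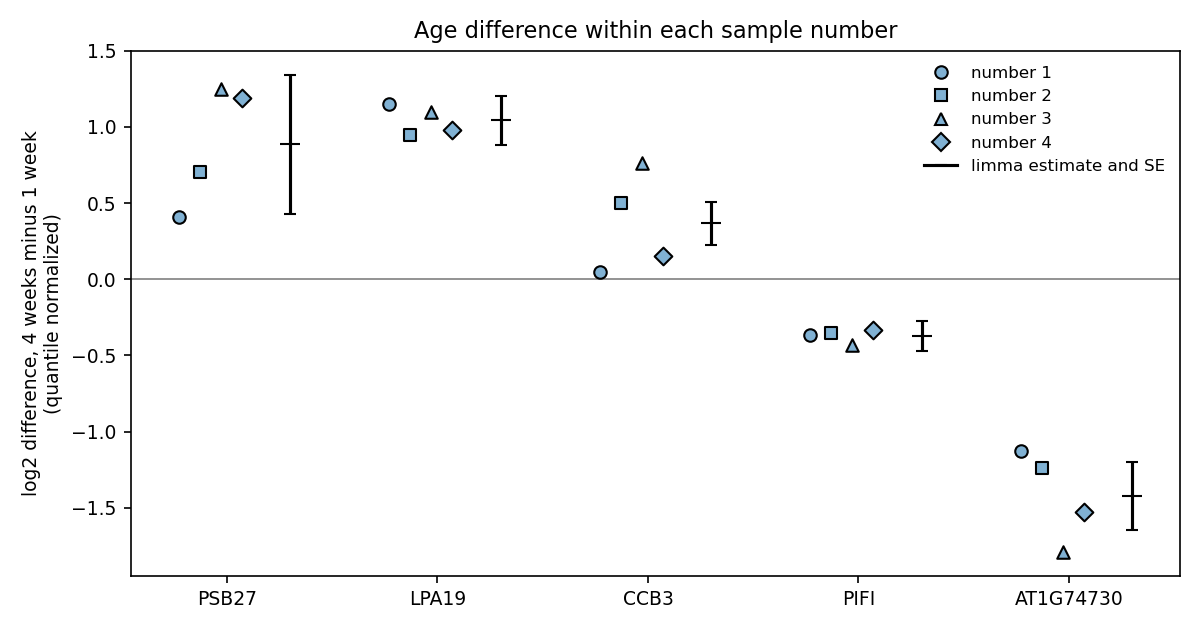
Normalized log2 difference, 4 weeks minus 1 week, of the 5 genes within each sample number (points) and the limma estimate over all samples with its SE (bar). All 4 points lie above 0 for PSB27, LPA19 and CCB3 and below 0 for PIFI and AT1G74730; PIFI has the narrowest set of points, and those of PSB27 run from 0.41 to 1.25.

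Set side by side, the direction of change was the same in all 4 sample numbers for each of the 5 genes, as it was for 68.5% of the 2814 rows measured in all samples. The ages did not overlap in 4 of the 5 genes (LPA19, CCB3, PIFI and AT1G74730), beside 45.1% of the tested rows. Those 4 genes each gave the smallest p that the exact permutation test allows, 0.0286. The same held for 45.7% of the rows measured in all samples, and after adjustment over these rows 0 rows passed by that test. All rows at the smallest p share the same adjusted p of 0.0626 in this test. At that share of rows no row could pass, however large its change. A difference in the age effect between samples 1 and 2 and samples 3 and 4, tested by a limma interaction term chosen after the values were seen, was largest for PSB27 (0.66 on the log2 scale, limma adjusted p = 0.315) and AT1G74730 (−0.47, 0.233), and passed for 0 of the 5 genes and 9 of 2814 rows.

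**Figure D3:**
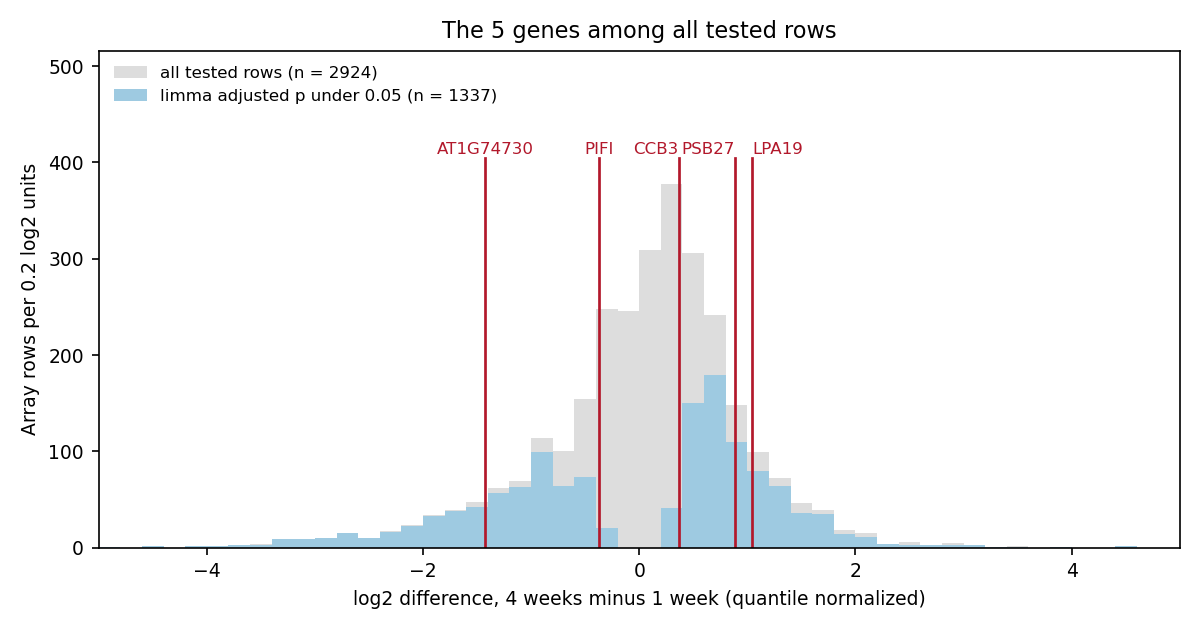
Number of array rows by normalized log2 difference, 4 weeks minus 1 week, for all 2924 tested rows (grey) and the 1337 with a limma adjusted p under 0.05 (blue), with red lines at the 5 genes. LPA19 and PSB27 lie in the upper shoulder, CCB3 and PIFI near the centre, and AT1G74730 in the lower tail.

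The other genes of thylakoid biogenesis and function were few on this array. Of 137 further genes on 10 lists (assembly or biogenesis factors of photosystem II, photosystem I, cytochrome b6f, NDH and ATP synthase, thylakoid organisation, protein targeting, and photosystem and antenna subunits), 9 could be tested as single-gene rows. PSAN alone passed the test, with a rise, and 8 did not, and the 9 log2 differences ran from −0.46 to 1.09 with a median of 0.22. This 1 of 9 stands beside the 45.7% called over all tested rows, and with the sample number as a block 4 of the 9 passed (PSAN, PSBW, PSBY and LHCB1.5), beside 56.6% of all tested rows. PSAN, a lumenal subunit of photosystem I, had signals of 3.31 ± 0.368 at 4 weeks and 2.78 ± 0.395 at 1 week (SD, n = 4 each), which is 0.39 higher on the normalized log2 scale (limma adjusted p = 0.0389). Without quantile normalization PSAN missed the threshold, at 0.26 unscaled (limma adjusted p = 0.176) and at 0.21 after centring on medians (limma adjusted p = 0.239).

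Beside LPA19 and PSB27, the photosystem II assembly and repair list held 1 more tested gene, AT1G54500, whose log2 difference was 0.19 (SE 0.28, limma adjusted p = 0.592). Beside PIFI, the NDH list held NdhS, a subunit of the ferredoxin-binding part of the complex, at 0.22 (SE 0.15, limma adjusted p = 0.247). The value of NdhS shrank to 0.09 on unscaled signals and to 0.04 once medians were centred. All of these lie above 0, unlike the value of PIFI, but none passed, so opposite change of NdhS and PIFI was not shown. Beside AT1G74730, the list of thylakoid organisation held FZL, a dynamin-like membrane protein that shapes thylakoids, at 0.05 (SE 0.36, limma adjusted p = 0.922). The factors of photosystem I, AT1G22700 and ATAB2, differed by 0.43 (SE 0.20, limma adjusted p = 0.116) and −0.35 (SE 0.19, limma adjusted p = 0.160). ATAB2 acts in the translation of photosystem proteins in the chloroplast.

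The subunits of photosystem II, which PSB27 and LPA19 serve, were measured through PSBW and PSBY. PSBY, whose log2 difference was 1.09 (SE 0.83, limma adjusted p = 0.314), and PSBW, at 0.60 (SE 0.32, limma adjusted p = 0.158), had values on the side of LPA19 and passed once the sample number was blocked (limma adjusted p = 0.00117 and 0.0286). The value of PSBW was 0.04 after median centring. LHCB1.5, an antenna protein of photosystem II, had a value of −0.46 (SE 0.23, limma adjusted p = 0.135), and it passed with the block (0.0139) and after median centring (−0.99, limma adjusted p = 0.00794).

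**Figure D4:**
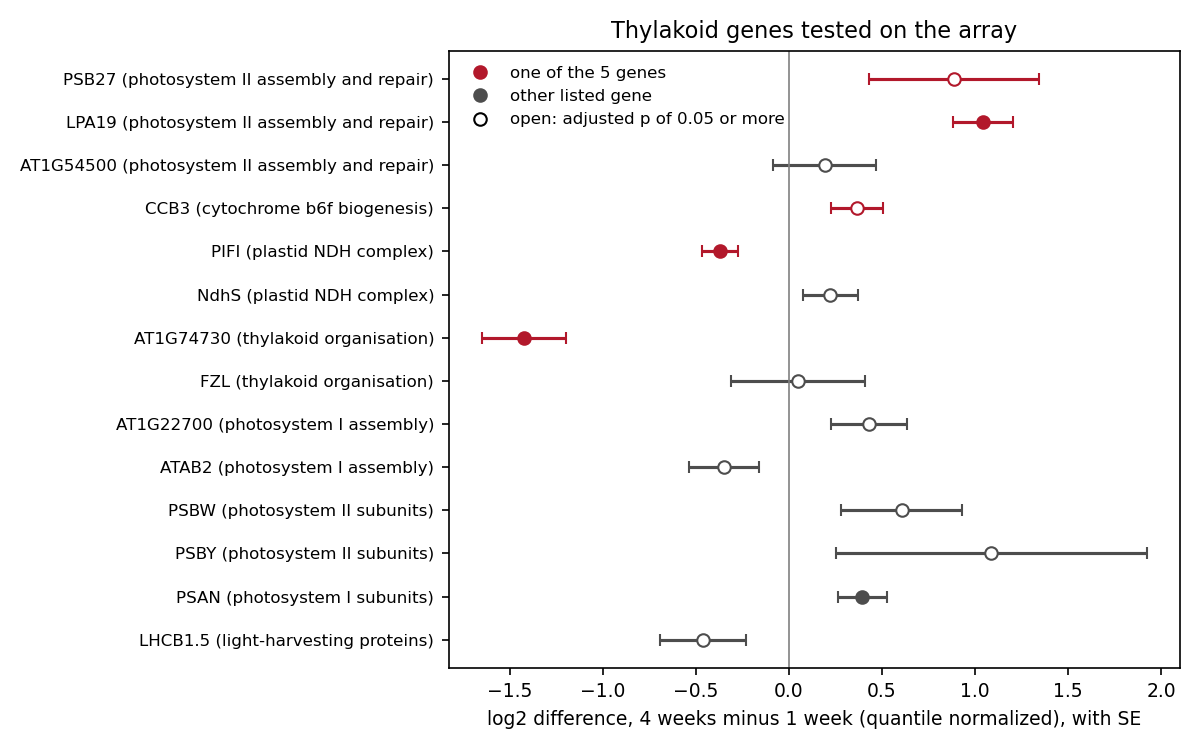
Normalized log2 difference, 4 weeks minus 1 week, with its SE for the 14 tested genes of the thylakoid lists; red marks the 5 genes, and filled points have a limma adjusted p under 0.05. Filled points are LPA19 and PSAN on the right of 0 and PIFI and AT1G74730 on the left.

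The genes whose pattern over the 8 samples was most like that of each gene were sought among the 563 other rows that name a single gene and were measured in every sample, by Pearson correlation of normalized log2 values. These correlations share the age split and the split between samples 1 and 2 and samples 3 and 4, so the correlation of deviations from the age means is given beside them, and all are descriptions. For PSB27 the closest were AT5G66090 (r = 0.967, and 0.968 within ages), HEMA3, a glutamyl-tRNA reductase gene of tetrapyrrole synthesis (0.932 and 0.912), and AT3G09050 (0.928 and 0.917). For LPA19 they were AT2G46630 (0.994 and 0.969), AT2G19280 (0.985 and 0.873) and AT1G07970 (0.984 and 0.858), each of which also rose.

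CCB3 had the weakest likeness, with AT2G31800 (0.905 and 0.812), AT4G31210 (0.887 and 0.725) and AT1G31790 (0.883 and 0.694). For PIFI they were AT1G01080 (0.993 and 0.930), AT5G64150 (0.992 and 0.985) and AT3G57570 (0.987 and 0.870). These matched the shape and not the size of the PIFI change, since their log2 differences were −1.91, −1.77 and −2.86. For AT1G74730 they were AT5G03370 (0.988 and 0.919), AT2G01400 (0.984 and 0.892) and CRR21, a gene of the chlororespiratory reduction series (0.982 and 0.883), with log2 differences of −1.21, −1.27 and −1.43, close to that of AT1G74730 itself.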

How the data were processed

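The authors deposited array intensity values, 1 per row and sample. Background correction, scaling and genome build are not given in the sources used here, and the values end at a ceiling of 100. Rows were named with GEO's platform annotation, updated through gene numbers to a TAIR10.1 gene table. Of the 3439 rows, 692 named 1 gene (690 found in that table), 870 several and 1877 none.

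Signals were log2-transformed (0 taken as missing) and quantile normalized, since array medians differed by up to 0.13. Rows needed 3 measured samples in each age, and 2 rows at the ceiling in all samples were left out, which left 2924 rows, 588 of them single-gene. The age difference, 4 weeks minus 1 week, was fitted per row without a block, using limma 3.58.1 and R 4.3.3. The procedure was tested on simulated data with independent samples. These lacked the likeness of samples 1 and 2, and of samples 3 and 4, so its effect on the calls was not tested there. Signals with an SD are deposited values.

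Samples with the same number deviated together from their age means (r of 0.425 to 0.527 in 4 of 4 pairs), so a fit blocked on the number was run as an alternative and is printed beside results whose call it changes. Unless a block is named, calls and permutation tests are unpaired. The sample titles give the numbers but do not say that equal numbers are paired. That reading comes from the data, and other numbers within samples 1 and 2, and 3 and 4, gave 0.180 to 0.397. The 5 genes and all lists were chosen with earlier results of these data known. All 5 genes are named, with every listed gene found as a single-gene row, and the 3 most alike rows for each of the 5. Alternatives were other scalings, filters, blocks, averaged samples, an exact permutation test and leaving out each sample.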

Additional observations from a re-analysis of the deposited data

How the results depend on the processing

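Every gene kept its direction under all alternatives run. When any 1 sample was left out, the log2 difference ran from 0.61 to 1.25 for PSB27 (limma adjusted p 0.0438 to 0.313), from 0.96 to 1.14 for LPA19 (0.00169 to 0.00464), from 0.26 to 0.45 for CCB3 (0.0417 to 0.138), from −0.40 to −0.34 for PIFI (0.0226 to 0.0451) and from −1.55 to −1.27 for AT1G74730 (0.00158 to 0.00556). LPA19, PIFI and AT1G74730 passed in all 8 of these fits, and the number of called rows ran from 1075 to 1283. The change of PSB27 minus that of LPA19 ran from −0.53 to 0.27 and turned sign without 4-week sample 1 (0.27), 4-week sample 2 (0.05), 1-week sample 3 (0.0049) or 1-week sample 4 (0.09). It was −0.36 on the values as deposited, and its exact permutation p lay between 0.486 and 1 in all settings. With the sample number as a block, the smallest p this test allows is 0.125, so that setting could not pass.

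At an unchanged log2 difference of 0.89, PSB27 passed with the sample number as a replicate block (limma adjusted p = 0.00923), with samples 1 and 2 against samples 3 and 4 as a block (0.00724) and in averaged pairs with these as a block (0.0325), and it passed at 1.22 in samples 3 and 4 alone (0.00675). CCB3 passed at 0.48 as deposited, at 0.43 after median centring and at 0.37 with samples 1 and 2 against samples 3 and 4 as a block. The replicate block changed no other call of the 5 genes, and gave 1656 called rows. With samples 1 and 2, and 3 and 4, averaged, which leaves 2 values per age, 400 rows were called and LPA19 (1.04), PIFI (−0.37) and AT1G74730 (−1.42) did not pass; PIFI (−0.37) also did not pass with these averages as a block. In the exact permutation test 0 of 2814 rows passed after adjustment, 1285 having an unadjusted p under 0.05. LPA19 (1.04), PIFI (−0.37) and AT1G74730 (−1.42) each had an adjusted p of 0.0626 in that test. No row could get a lower adjusted p there, since all 1285 rows share the smallest p, so that setting could not pass for any gene. LPA19 and CCB3 lay in the lowest tercile of signal and have no value without it. How far signals lay above background is not given, so the limit that dimness sets on LPA19 is unknown.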

Other observations

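Further listed thylakoid genes were present as single-gene rows but at or near 0, and were not tested. AT1G49380, on the cytochrome b6f list with CCB3, was above 0 in 1 of 4 samples at 4 weeks and in 0 of 4 at 1 week, with a highest signal of 0.0049. NdhN, a subunit of the NDH complex, was above 0 in 1 sample of each age, at most at 0.0132. AT3G29185, on the ATP synthase list, was above 0 in 0 of 4 samples at 4 weeks and in 1 of 4 at 1 week, at 0.0081. A row listed at 0 does not show that the transcript was missing. Another 13 listed genes appeared only in rows that name several genes, AT5G08050 among them, and no value can be given to any of these genes alone. In none of the 12 groups checked (the 5 genes and the difference between PSB27 and LPA19, at each age) did 1 sample stand far from the other 3.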
